A study of Mus musculus with 8 samples.

Results

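Nuclear receptors are transcription factors with a zinc-finger DNA-binding domain and, in most members, a pocket that binds a small lipophilic ligand. The 41 mouse genes of this family that were described here were chosen by name, from receptor subfamilies NR1 to NR6 and NR0, out of 21887 protein-coding genes in the gene table. All 41 were found: 18 in NR1, 11 in NR2, 6 in NR3, 3 in NR4 and 1 each in NR5, NR6 and NR0. The chromatin data came from MIN6 cells, an insulin-secreting line from a mouse tumour that stands in for pancreatic beta cells. All cells were labelled wild type and were transfected for 48 hours with a lipid reagent, either with the empty vector pcDNA 3 or with the Klf4 expression plasmid pGloMyc-Klf4. Klf4 is a zinc-finger transcription factor that binds GC-rich and CACCC-type DNA. ATAC-seq, in which a transposase inserts adapters into accessible DNA, was carried out on 4 libraries for each plasmid, and the question the design poses is where accessible chromatin differed with Klf4.

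The subfamilies follow sequence relatedness, and members differ in how they bind DNA. Retinoic acid, thyroid hormone, vitamin D, PPAR and LXR receptors bind DNA as partners of the retinoid X receptors, steroid receptors bind as pairs of themselves, and several orphan receptors bind alone. In beta cells, members of the family are known for roles in lipid and glucose sensing, in the circadian clock and in the response to glucocorticoids, and the NR4A genes are known as rapidly induced genes.

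The deposited data were 1 list of broad peaks for each plasmid, with the 4 libraries of a plasmid merged. Because each list holds 1 value per region, there is no spread between replicates and no difference below has a test. Read depth is unknown from these lists. On the main chromosomes the empty vector list held 100099 peaks over 66.0 Mb and the Klf4 list held 128538 peaks over 84.2 Mb, so peaks covered 1.28 times as much DNA in the Klf4 list, and every comparison below stands against that background. The 2 plasmids carry different names, so an effect of the backbone and an effect of Klf4 cannot be told apart, nor can transfected and untransfected cells in 1 culture. All 8 beta cell markers examined had peaks in both lists (81.2% of all protein-coding genes), with a median log2 ratio of covered length of 0.09. Of 8 markers of other cell types, 6 also had peaks in both lists, and 2 passed a 2-fold ratio (8.51% of all protein-coding genes): the duct marker Krt19, with 1233 bp for the empty vector against 4704 bp for Klf4, and the endothelial marker Cdh5, with 2064 against 4755 bp. The acinar marker Cpa1 had no peak, and the hepatocyte marker Alb had 172 bp in the empty vector list only. Over the 8 markers of other cell types the median log2 ratio was 0.39. What part other cell types have in the results was not tested.

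Every nuclear receptor gene, 41 of 41, had at least 1 peak in each list, as did 81.2% of all protein-coding genes. For each gene, peaks were collected from 10 kb before to 10 kb after the gene body. In these windows the empty vector list had 308 peaks and the Klf4 list had 394, counting a peak again where 2 windows overlap. Covered length summed to 227298 bp for the empty vector against 282522 bp for Klf4, a ratio of 1.24, which is below the 1.28 of the whole lists. Of the 55224 bp by which Klf4 coverage exceeded empty vector coverage, 50.2% lay at 5 genes: Rxra, Rara, Ppard, Rarg and Nr4a1.

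The change of each gene was expressed as the log2 ratio of covered length, Klf4 over empty vector, with 500 bp added to both lengths, and a 2-fold ratio was the threshold for a call. None of the 41 genes passed it in either direction, where 8.51% of all protein-coding genes were called higher and 0.242% lower. Coverage was greater in the Klf4 list at 31 of the 41 genes (62.3% of all genes) and smaller at 10 (22.7%). The median log2 ratio was 0.32, with quartiles of 0.01 and 0.48, against a median of 0.13 over all genes. These backgrounds are unlike: all 41 genes had peaks, while 3258 of the 21887 protein-coding genes had none in either list. Genes without a peak have a ratio of 0 and count as neither higher nor lower. Over genes covered in both lists, with no length added, the median was 0.335 for the 41 and 0.25 for all. The windows of these receptors are long, with a median of 66.5 kb against 37.2 kb over all genes. Among the 41, the log2 ratio was lower in longer windows (Pearson r −0.35, Spearman rho −0.33, a description across genes). The split differed between settings: with peaks limited to −log10 q of at least 20 it was 17 higher and 18 lower (37.4 and 33.0% of all genes), and among the 60000 strongest peaks of each list it was 24 higher and 16 lower (45.7 and 34.5% of all genes). A fixed limit on −log10 q can keep a region in 1 list and drop its partner of similar width from the other, so the ratios above such a limit do not by themselves show lost coverage. The 2 other settings that moved the median were −log10 q of at least 5, with 24 higher and 16 lower (57.5 and 24.6% of all genes), and a minimum width of 500 bp, with 30 higher and 10 lower (55.5 and 25.4%).

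**Figure D1:**
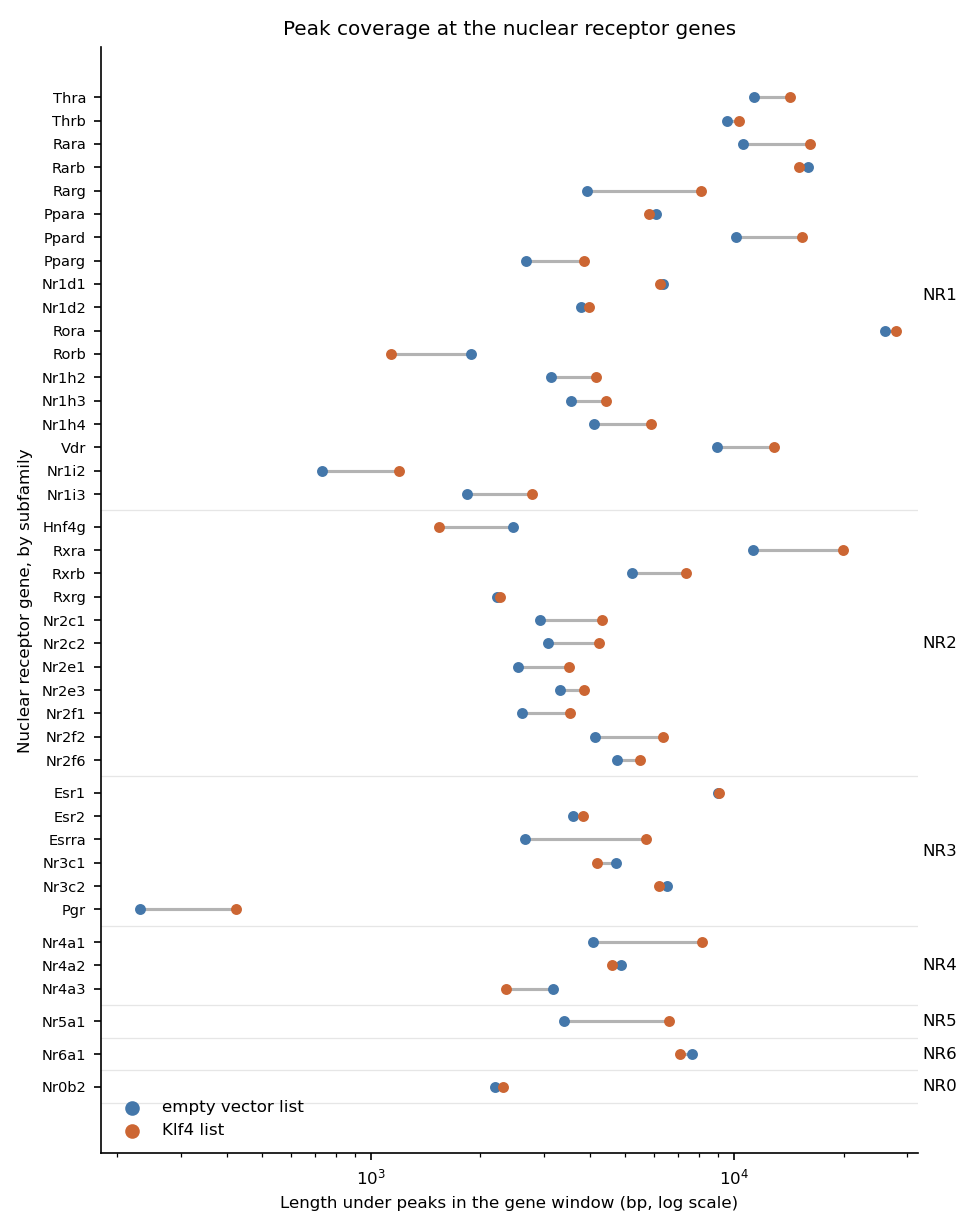
Length under peaks (bp, log scale) in the window of each of the 41 nuclear receptor genes, with blue points for the empty vector and orange points for Klf4, grouped by subfamily. Rora had the most covered DNA in both lists, 26004 and 27956 bp, and Pgr the least, 231 and 424 bp.

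**Figure D2:**
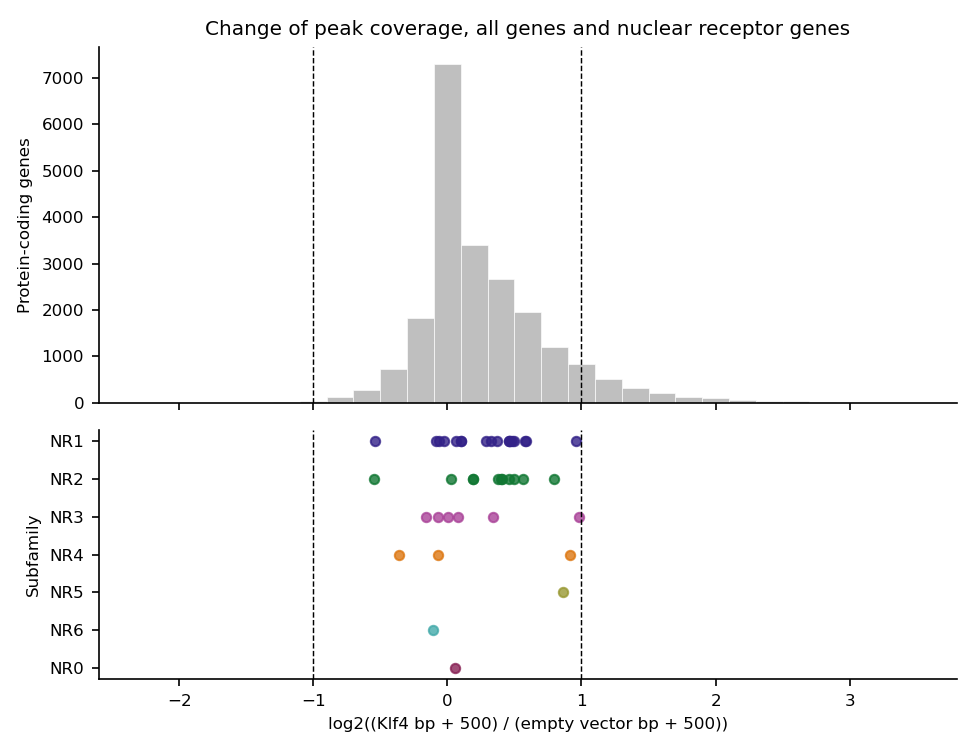
Above, the number of protein-coding genes by log2 ratio of covered length (500 bp added to both lengths); below, each nuclear receptor gene by subfamily, with dashed lines at a 2-fold ratio. The 41 genes ranged from −0.54 to 0.98, inside both lines.

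Peaks called in 1 list only were common near these genes. A Klf4-only peak, defined as a peak without a single shared base with the empty vector list, lay in the windows of 35 of the 41 genes (60.6% of all genes). An empty-vector-only peak lay in 22 windows (35.7% of all genes). Counting each peak once, 126 of 388 Klf4 peaks in the windows were Klf4-only, 32.5% with a 95% Wilson interval of 28.0 to 37.3%, and the share over the whole Klf4 list was 36.7%. For the empty vector it was 43 of 304 peaks, 14.1% (10.7 to 18.5%), with 18.8% over the whole list. In both lists the shares at the receptor genes were therefore below those of the whole list, and the whole-list share lay inside the interval for Klf4 and just outside it for the empty vector.

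List-specific peaks were narrower and weaker than the overlapped ones. For Klf4-only peaks the median width was 349 bp and the median −log10 q 4.78, while Klf4 peaks that met an empty vector peak had medians of 645 bp and 11.3. The same medians were 272 bp and 2.79 for empty-vector-only peaks, and 648 bp and 13.1 for the overlapped ones of that list. The strongest Klf4-only peak reached a −log10 q of 35.7 and the strongest empty-vector-only peak 11.4, both in the window of Vdr. The −log10 q and fold enrichment are the authors' values for each peak. They rank peaks within 1 list, and values from the 2 lists are set side by side below without a comparison of size.

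**Figure D3:**
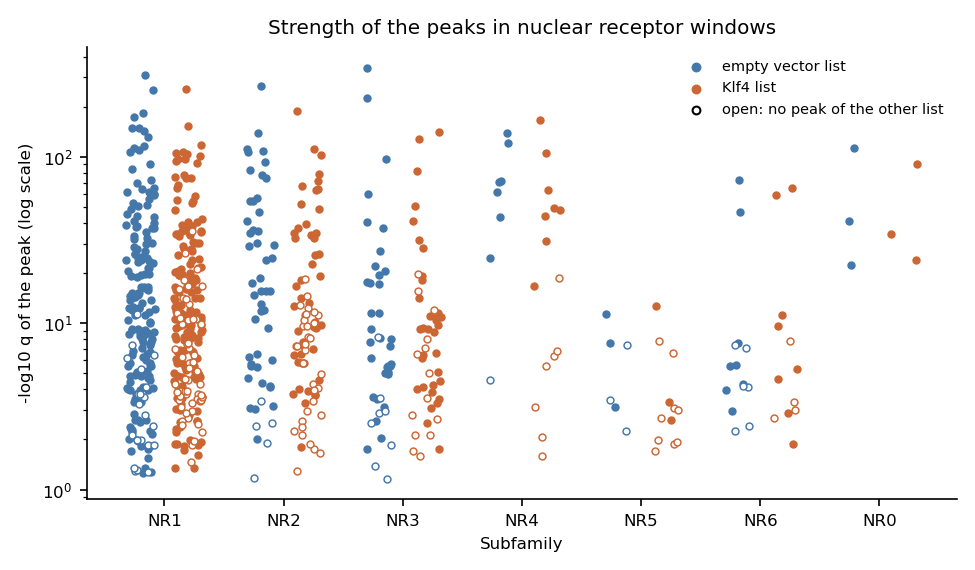
The −log10 q of every peak (log scale) in the windows, by subfamily and list, with open points for peaks that met no peak of the other list. Open points gather at low values, and none passed 35.7 for Klf4 or 11.4 for the empty vector.

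At gene starts the lists were nearly alike. Of the 37 genes with an entry in the RefSeq promoter table, 30 had a peak within 500 bp of a listed start in both lists (62.0% of genes with an entry). Nr1i3 was the 1 gene with a start peak in the Klf4 list alone over all its listed starts (7.05% of genes with an entry), and no gene had one in the empty vector list alone (0.595%). A further start of Rxra, at base 27709292, also had a Klf4-only peak, with a −log10 q of 1.87, and its other listed start had a peak in both lists. At Nr2f1, which had a start peak in both lists, a Klf4-only peak of −log10 q 4.30 lay 461 bp from a start. The other 6 genes, Nr1i2, Rxrg, Nr2e1, Nr2e3, Nr2f2 and Pgr, had no start peak in either list (30.3%). Within 2000 bp of a start, Nr2e1, Nr2e3, Nr2f2 and Pgr joined Nr1i3 with a peak of the Klf4 list only, which makes 5 of 37 genes (6.99% of genes with an entry). Their −log10 q values were 7.32, 2.25, 4.93 and 2.12. Of 112 Klf4-only peaks in the windows of genes with an entry, 9 (8.04%, 95% Wilson interval 4.29 to 14.6%) lay within 1 kb of a start of their gene, and of 37 empty-vector-only peaks none did, which allows a share of up to 9.41% (95% Wilson). Of the peaks present in both lists, 31 of 246 (12.6%) of the Klf4 list and 31 of 245 (12.7%) of the empty vector list lay there. The share for overlapped Klf4 peaks falls inside the interval for Klf4-only peaks.

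The promoters of 6 genes are shown because they belong to the 1 gene whose only start peak was in the Klf4 list or to the genes described peak by peak below. Each run is the 250 bases before a RefSeq start (GRCm38.p6, the assembly called mm10), 5′ to 3′ in the direction of the gene. Capitals mark CACCC or GGGCGG or else GGGNGTGG on either strand, which are letters of the kind bound by Klf4 and related zinc-finger factors. Nr1i3 lies at chr1:171213720-171213969 (plus strand), Esrra at chr19:6921809-6922058 (minus), Nr1d2 at chr14:18239107-18239356 (minus), Nr4a3 at chr4:48045055-48045304 (plus), Nr6a1 at chr2:38926462-38926711 (minus) and Nr4a1 at chr15:101266596-101266845 (plus).
Nr1i3: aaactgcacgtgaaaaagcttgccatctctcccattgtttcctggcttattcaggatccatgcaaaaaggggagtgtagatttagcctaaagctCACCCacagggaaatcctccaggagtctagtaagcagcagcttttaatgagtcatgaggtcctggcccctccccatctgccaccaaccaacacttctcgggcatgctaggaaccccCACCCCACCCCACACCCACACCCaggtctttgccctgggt
Esrra: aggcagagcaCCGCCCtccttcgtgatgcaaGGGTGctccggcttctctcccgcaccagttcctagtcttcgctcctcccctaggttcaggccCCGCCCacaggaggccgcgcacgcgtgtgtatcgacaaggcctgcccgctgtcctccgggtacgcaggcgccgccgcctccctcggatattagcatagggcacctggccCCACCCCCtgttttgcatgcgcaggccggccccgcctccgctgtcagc
Nr1d2: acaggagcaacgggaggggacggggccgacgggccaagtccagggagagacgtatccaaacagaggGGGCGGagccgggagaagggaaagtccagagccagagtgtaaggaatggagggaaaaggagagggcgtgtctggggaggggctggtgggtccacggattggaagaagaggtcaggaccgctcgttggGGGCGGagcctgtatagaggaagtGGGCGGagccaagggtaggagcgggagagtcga
Nr4a3: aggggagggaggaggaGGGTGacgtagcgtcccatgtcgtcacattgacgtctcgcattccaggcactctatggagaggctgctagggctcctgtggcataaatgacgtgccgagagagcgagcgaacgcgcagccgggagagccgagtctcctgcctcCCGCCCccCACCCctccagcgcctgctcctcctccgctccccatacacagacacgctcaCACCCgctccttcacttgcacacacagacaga
Nr6a1: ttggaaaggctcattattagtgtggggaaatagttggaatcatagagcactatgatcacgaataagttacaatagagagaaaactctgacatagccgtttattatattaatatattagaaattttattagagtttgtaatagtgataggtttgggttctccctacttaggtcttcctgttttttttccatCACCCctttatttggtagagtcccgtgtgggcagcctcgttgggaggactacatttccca
Nr4a1: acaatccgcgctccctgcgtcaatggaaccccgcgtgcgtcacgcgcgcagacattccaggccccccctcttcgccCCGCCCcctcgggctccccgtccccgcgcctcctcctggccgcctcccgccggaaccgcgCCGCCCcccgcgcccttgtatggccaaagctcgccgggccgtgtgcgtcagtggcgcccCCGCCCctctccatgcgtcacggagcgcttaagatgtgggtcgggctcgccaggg
A Klf4 peak covered 207 of the 250 bases of the Nr1i3 promoter and the empty vector list covered 0, while the other 5 were covered over all 250 bases in both lists. The Nr1i3 promoter held 5 matches of CACCC and 2 of GGGNGTGG, most of them in 1 run close to the start, with a GC content of 53.2%. Over all promoters of the table, 0.644% held at least 5 CACCC. The Nr4a1 promoter had a GC content of 74.4% with 3 GGGCGG and no CACCC, and the Nr6a1 promoter had 37.6% with a single CACCC.

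Across the 52 listed promoters of the family, the searched letters occurred at shares close to those of the 21263 promoters of the table. CACCC was present in 32 of them (61.5%, all promoters 54.2%), GGGCGG in 25 (48.1%, 42.6%) and GGGNGTGG in 9 (17.3%, 17.7%), on either strand. A GGGCGG and a CACCC can overlap the same bases. AGGTCA, the half-site bound by many nuclear receptors themselves, was in 9 promoters (17.3%, 12.8%), and its direct repeat with 1 base between the 2 copies was in none (0.0423%). The steroid receptor palindrome of GNACA and TGTNC with 3 bases between was in none either (0.357%), while the E-box CACGTG was in 5 (9.62%, 6.63%), those of Esr2, Nr0b2, Nr1i3, Rara and Thrb. TTATGTAA was in none (0.795%) and TGACGTCA, a full cyclic AMP response element, in that of Nr2e1 alone (1.92%, all promoters 1.92%). The letters of a retinoic acid response element, GTTCA followed after 5 bases by AGTTCA, occurred in 1 receptor promoter, Rarb (0.0235% of all promoters). Rarb encodes a retinoic acid receptor and is a textbook retinoic acid target, and its promoter, chosen after its values were seen, is shown with that repeat in capitals (chr14:16575477-16575726, minus strand).
Rarb: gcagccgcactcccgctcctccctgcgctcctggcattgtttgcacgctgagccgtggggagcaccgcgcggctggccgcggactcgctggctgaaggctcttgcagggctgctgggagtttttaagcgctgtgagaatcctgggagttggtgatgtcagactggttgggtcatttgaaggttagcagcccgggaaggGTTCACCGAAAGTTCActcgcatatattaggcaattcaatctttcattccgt
This promoter was covered over all 250 bases in both lists, by a peak of −log10 q 8.98 with the empty vector and 19.4 with Klf4. Promoters with a start peak in either list were richer in GC by median. The 38 in the family had a median GC content of 63.6% (range 37.6 to 82.4%) and the 14 without had 46.6%. Over all promoters the medians were 60.0 and 44.8%.

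Among the receptors for thyroid hormone and retinoic acid, 4 of the 5 had more coverage with Klf4 (62.3% of all genes), and above a −log10 q of 20 it was 1 of the 5 (37.4%). Rarg, on chromosome 15, had 4 peaks over 3938 bp with the empty vector and 10 peaks over 8115 bp with Klf4, a log2 ratio of 0.96. Of its 2 listed starts, the upstream one lay under a peak of 1506 bp (102256587 to 102258092) in the empty vector list and one of 3654 bp (102255610 to 102259263) in the Klf4 list, and the downstream one under peaks of 1844 and 1887 bp. The 6 Klf4-only peaks of Rarg had −log10 q values of 2.46 to 16.7. The strongest, at 102235326 to 102236229, spanned 904 bp, and another, of 11.6, lay at the start of the neighbouring integrin gene Itgb7. The log2 ratio of Rarg was 0.84 above a −log10 q of 5, 0.67 with peaks of at least 500 bp, −0.16 among the 60000 strongest peaks of each list and −2.24 above a −log10 q of 20. At that last limit the peak over the downstream start remained in the empty vector list, with 32.0, and not in the Klf4 list, with 17.2. Rara, on chromosome 11, had 14 peaks over 10567 bp and 19 peaks over 16130 bp (log2 0.59). Of its 6 Klf4-only peaks, 5 had −log10 q above 10, with a maximum of 18.5, and above a −log10 q of 20 the log2 ratio of Rara was −0.16. Rarb, on chromosome 14, had 31 peaks over 16005 bp and 28 peaks over 15055 bp (log2 −0.09), with 4 empty-vector-only peaks and 1 Klf4-only peak. Thra had 11306 and 14261 bp (log2 0.32), and its window shares the start peak of Nr1d1, which lies on the same stretch of chromosome 11. Thrb had 9562 and 10285 bp (log2 0.10) with 3 list-specific peaks on each side. One of them, Klf4-only at chr14:17923491-17924820, spanned 1330 bp with a −log10 q of 21.5 and was the second strongest Klf4-only peak of the family by gene.

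Of the fatty acid sensing PPAR genes, 2 had more coverage with Klf4 and 1 had slightly less (62.3 and 22.7% of all genes). Ppard had 15 peaks over 10093 bp and 18 peaks over 15326 bp (log2 0.58). Pparg, the regulator of fat cell differentiation, had 4 peaks over 2664 bp and 8 over 3858 bp (log2 0.46), and its 4 Klf4-only peaks did not exceed a −log10 q of 4.63. Ppara had 7 peaks over 6100 bp and 8 over 5837 bp (log2 −0.06), although the 1 Mb on both sides of its window had a log2 ratio of 0.84. None of the 3 directions held under every setting: Pparg was at −0.78 above a −log10 q of 20, Ppard at −0.03 among the 60000 strongest peaks, and Ppara at 0.53 with 50 kb on both sides.

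The clock-linked receptors had similar coverage in the 2 lists apart from Rorb. Nr1d1 and Nr1d2 encode the REV-ERB repressors of the circadian clock. Nr1d2 had the strongest Klf4 peak of the family, at its own start: 1427 bp (18238182 to 18239608) with a −log10 q of 312 in the empty vector list, and 1408 bp with 255 in the Klf4 list, within the top 0.26% and 0.19% of their lists. Its covered length was 3783 and 3974 bp (log2 0.06). Nr1d1 had 4 peaks in each list over 6371 and 6256 bp (log2 −0.02) and no list-specific peak, and its log2 ratio was 0.69 above a −log10 q of 5. Rora, the activator counterpart, had 44 and 51 peaks (log2 0.10) with 5 empty-vector-only and 12 Klf4-only peaks. The strongest of the 12, at chr9:68798200-68798640, had a fold enrichment of 7.89 and a −log10 q of 21.2. Rorb, on chromosome 19, had a single peak in both lists, 1581 bp long for the empty vector against 1137 bp for Klf4. A second Rorb peak was empty-vector-only with a −log10 q of 3.75, and the log2 ratio was −0.54, next to a surrounding 1 Mb at 0.37.

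The sterol and bile acid receptors of NR1 had more coverage with Klf4 over the 10 kb windows, but each of the 3 turned under some setting. Nr1h2 (LXR beta) had 3122 and 4171 bp, a log2 ratio of 0.37, and a log2 ratio of −0.01 above a −log10 q of 5 or 20 and among the 60000 strongest peaks. Nr1h3 (LXR alpha) had 3554 and 4446 bp, a log2 ratio of 0.29, and −0.10 over the gene body alone. The start peak of Nr1h3 had a −log10 q of 6.0 with the empty vector and 30.4 with Klf4, at nearly the same position (91194620 to 91195342 and 91194671 to 91195342 on chromosome 2). Nr1h4, the bile acid receptor FXR, had 4120 and 5881 bp (log2 0.47), and a log2 ratio of −0.37 above a −log10 q of 20.

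Vdr, the vitamin D receptor on chromosome 15, had the strongest list-specific peaks on both sides. It had 10 peaks over 8993 bp with the empty vector and 17 peaks over 12884 bp with Klf4 (log2 0.50). The Klf4-only peaks numbered 8. The 2 strongest were each 699 bp long, at 97856881 to 97857579 with a −log10 q of 35.7 and at 97858809 to 97859507 with 26.3, and 2 more, at 97898800 to 97899082 and 97852200 to 97852396, reached 18.1 and 14. The single empty-vector-only peak, at 97901566 to 97901939, had a −log10 q of 11.4. Vdr was 1 of 6 genes, with Esrra, Nr1i3, Nr2f6, Rxra and Rxrb, whose coverage was greater with Klf4 under each of the 8 alternative settings run, where the Vdr log2 ratio ranged from 0.43 to 0.81. Settings that change only the added length cannot change a direction. The share of all protein-coding genes that keep 1 direction was not computed.

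The xenobiotic receptors differed in where their peaks lay. Nr1i3 encodes CAR, a receptor best known from liver, where it induces drug-metabolising enzymes. At its start the Klf4 list had a peak of 311 bp at chr1:171213763-171214073 with a fold enrichment of 6.17 and a −log10 q of 13.1, and the empty vector list had none. The strongest peaks of the window lay instead next to Apoa2 downstream, as 1 Klf4 peak of 2063 bp (171220896 to 171222958) over the place of 2 empty vector peaks of 358 and 835 bp. Total coverage was 1840 and 2766 bp (log2 0.48). Nr1i2, which encodes PXR, had 2 weak peaks in each list, none with a −log10 q above 8.65, and 733 and 1193 bp of coverage (log2 0.46). Its log2 ratio was −0.94 above a −log10 q of 5, where only an empty vector peak passed. With peaks of at least 500 bp it was 1.54, where only a Klf4 peak passed.

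**Figure D4:**
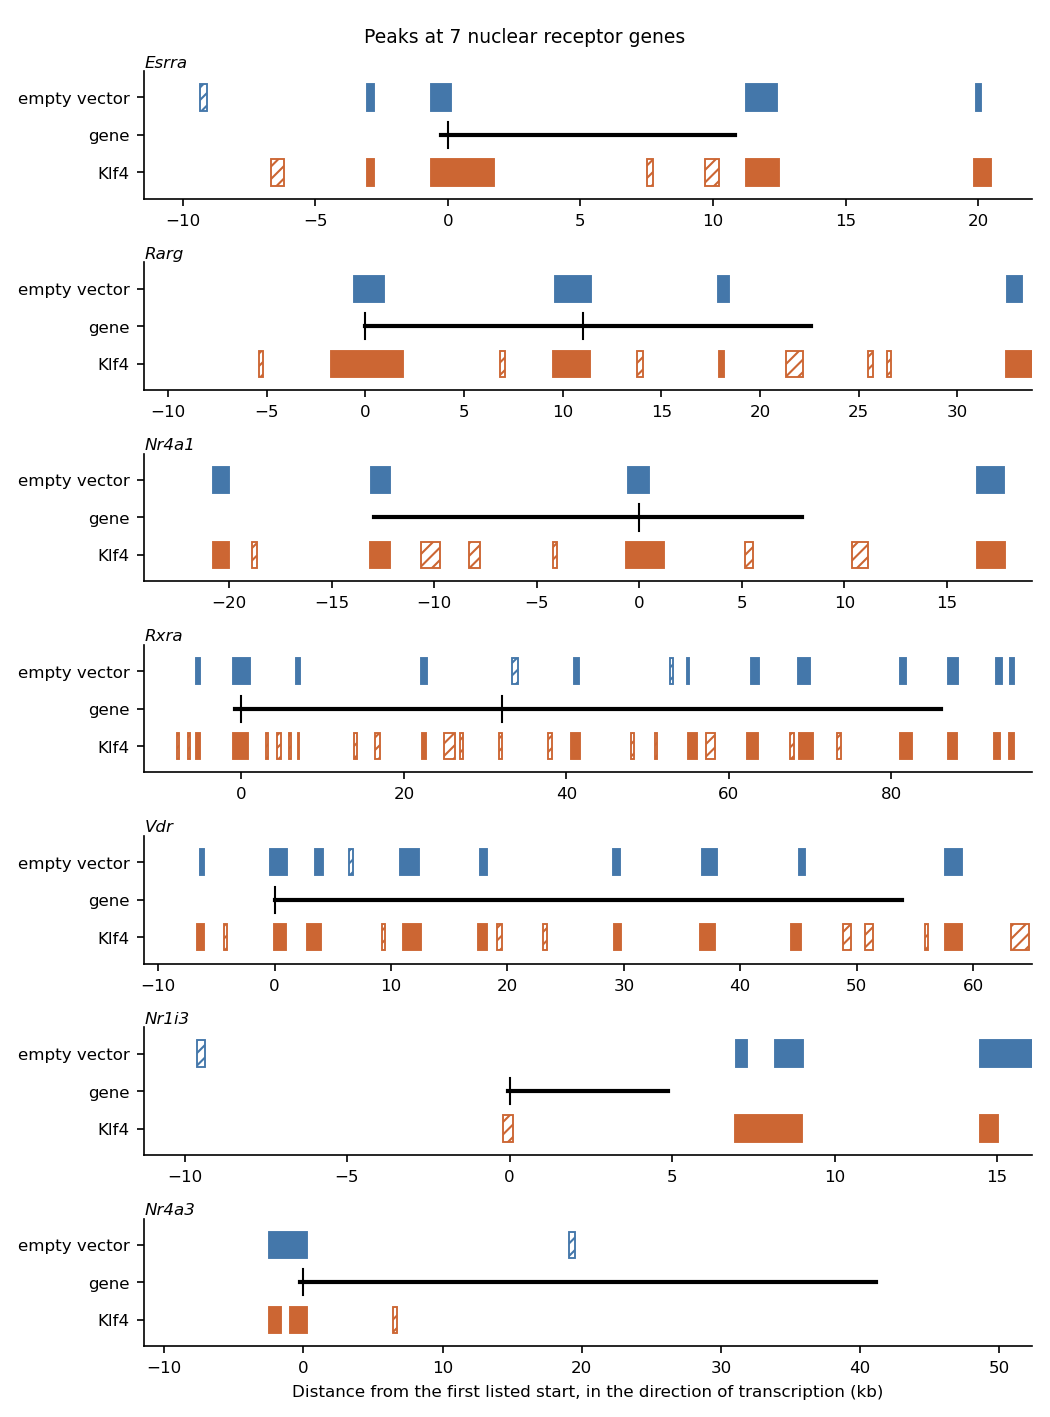
Peaks of the empty vector list (upper row) and the Klf4 list (lower row) around Esrra, Rarg, Nr4a1, Rxra, Vdr, Nr1i3 and Nr4a3, by distance from a listed start in the direction of transcription (kb). Hatched boxes met no peak of the other list, filled boxes did, and ticks on the gene mark listed starts; Rxra shows 16 hatched boxes in the Klf4 row and 2 in the empty vector row.

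In NR2, 10 of 11 genes had more coverage with Klf4 (62.3% of all genes), with a median log2 ratio of 0.40. Above a −log10 q of 20, 4 were higher, 5 lower and 2 equal, where 37.4% of all genes were higher and 33.0% lower. Rxra, a partner of the retinoic acid, thyroid hormone, vitamin D, PPAR and LXR receptors, held the most Klf4-only peaks of the family. It had 14 peaks over 11294 bp with the empty vector and 28 peaks over 19980 bp with Klf4 (log2 0.80). Of the Klf4 peaks, 16 were Klf4-only and 6 of these had a −log10 q of at least 10. The strongest, at chr2:27693636-27694211, was 576 bp long with 18.4, and the widest, at 27702112 to 27703443, was 1332 bp long with 12.4. The 2 empty-vector-only peaks had values of 2.41 and 3.39. When peaks were limited to −log10 q of at least 20, the log2 ratio of Rxra was 0.01. The start peak had a −log10 q of 14.8 with the empty vector and 16.6 with Klf4. Rxrb, another retinoid X receptor, had 5224 and 7361 bp (log2 0.46) with its strongest peak at its start. Rxrg, the remaining one, had 2217 and 2269 bp (log2 0.03), but these lay in 2 peaks with the empty vector and 7 with Klf4, 4 of them Klf4-only, with a maximum −log10 q of 12.9. Its log2 ratio was −1.30 with peaks of at least 500 bp and 0.85 with 50 kb on both sides.

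The other 8 NR2 genes had log2 ratios between −0.54 and 0.57. Nr2f1 and Nr2f2 encode the COUP-TF orphan receptors. Nr2f2 had 2 peaks over 4125 bp and 6 peaks over 6347 bp (log2 0.57), with 4 Klf4-only peaks up to a −log10 q of 4.93, and the 1 Mb around it had a larger log2 ratio, 1.13. The log2 ratio of Nr2f2 was 0.02 above a −log10 q of 5 and among the 60000 strongest peaks. Above 20 it was −2.95, where its main peak, 3360 and 3407 bp long, passed in the empty vector list with 29.0 and not in the Klf4 list with 19.1. Nr2f1 had 2595 and 3524 bp (log2 0.38), with −0.69 for peaks of at least 500 bp and 1.30 over the gene body alone. Nr2f6 had no list-specific peak, and its strongest peak, 267 and 187 in −log10 q, lay at the start of the neighbouring gene Ocel1. Nr2c1, Nr2c2 and Nr2e1 had log2 ratios of 0.49, 0.41 and 0.40, and Nr2e3 0.19. For Nr2e1 the log2 ratio was 3.00 above a −log10 q of 5. None of its 3 empty vector peaks passed that limit, with a maximum of 3.18, though each met a Klf4 peak that did. Hnf4g, a relative of the hepatocyte and beta cell regulator HNF4 alpha, was the exception, with 2465 and 1534 bp (log2 −0.54). Its main peak was nearly identical in the lists, 1106 bp (chr3:3507587-3508692) and 1117 bp (3507588 to 3508704), and 1 weak peak of −log10 q 2.52 was empty-vector-only. The log2 ratio of Hnf4g was 0.01 both above the −log10 q limit of 20 and among the 60000 strongest. It was −0.13 above a −log10 q of 5 and −0.49 with peaks of at least 500 bp.

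The steroid receptor subfamily NR3 was the most even of the large groups, with a median log2 ratio of 0.05 and 4 of 6 genes higher and 2 lower (62.3 and 22.7% of all genes). Esrra, which encodes an estrogen-related receptor that acts on mitochondrial genes, was apart from the rest with the highest ratio of the 41 genes. It had 5 peaks over 2654 bp with the empty vector and 7 peaks over 5722 bp with Klf4, a log2 ratio of 0.98 and, without the added length, a ratio of 2.16. Most of the extra length came from the start peak itself. It was 733 bp long (chr19:6921698-6922430) with a −log10 q of 344 in the empty vector list, the strongest peak of the family there and in the top 0.18% of that list. In the Klf4 list it was 2352 bp long (6920079 to 6922430), with a −log10 q of 128, and it reached further into the gene and ended at the same base upstream. There were also 3 Klf4-only peaks, with values of 2.79, 7.11 and 15.7, the last at 6927968 to 6928466, 6160 bp upstream of the start. The log2 ratio of Esrra ranged from 0.55 to 1.92 under the 8 alternative settings.

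Of the other 5 NR3 genes, 4 had log2 ratios between −0.16 and 0.08 and Pgr had 0.34. Esr1, the estrogen receptor alpha gene, had 8997 and 9052 bp (log2 0.01), with 3 empty-vector-only and 4 Klf4-only peaks. Esr2 had 3586 and 3828 bp (log2 0.08). Above a −log10 q of 20 Esr1 and Esr2 were at −0.58 and −1.10, and above 5 Esr2 was at 0.75. The start peak of Esr2, 1310 and 1304 bp long, had values of 21.9 and 19.2, on either side of the limit of 20. Pgr, the progesterone receptor gene, had 1 and 2 weak peaks, over 231 and 424 bp (log2 0.34). Nr3c1, the glucocorticoid receptor gene on chromosome 18, had 4732 and 4186 bp (log2 −0.16). Its widest peak was 3027 bp and 3053 bp long in the 2 lists, with −log10 q values of 40.4 and 40.9, and its strongest list-specific peak, at 39460895 to 39461085, was empty-vector-only with 8.26. Nr3c2, the mineralocorticoid receptor gene, had 6526 and 6207 bp (log2 −0.07), with 4 Klf4-only peaks, the strongest at chr8:77064531-77064829 with a −log10 q of 19.8.

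The 3 NR4A genes did not share a pattern. Nr4a1 (NUR77) had 4 peaks over 4084 bp with the empty vector and 10 peaks over 8143 bp with Klf4 (log2 0.91). Its start peak was 1036 bp long (chr15:101266268-101267303) and 1838 bp long (101266188 to 101268025), and 6 further peaks were Klf4-only. The strongest of these, 777 bp at 101277208 to 101277984, lay 10362 bp from the start with a −log10 q of 18.6. Above a −log10 q of 20 the log2 ratio of Nr4a1 was −0.04. Nr4a2 (NURR1) had 2 peaks in each list over 4874 and 4616 bp (log2 −0.07) and no list-specific peak. Nr4a3 (NOR1) had 3170 and 2353 bp (log2 −0.36). At its start the empty vector list had 1 peak of 2765 bp (chr4:48042832-48045596), where the Klf4 list had 2 peaks of 875 and 1195 bp with a gap between 48043697 and 48044377. Nr4a2 and Nr4a3 were the 2 genes of the family whose coverage was smaller with Klf4 in each of the 8 alternative settings, with −0.43 to −0.10 for Nr4a3 and −0.08 to −0.02 for Nr4a2. As above, changing only the added length cannot change a direction, and no share over all genes was computed.

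Nr5a1 and Nr6a1 are neighbours on chromosome 2 and their windows share 4 peaks. Nr5a1 encodes SF-1, the regulator of steroid-producing cells. It had 6 peaks over 3407 bp and 12 over 6600 bp (log2 0.86). Of these peaks, 3 of 6 and 9 of 12 were list-specific. The strongest of the 12 had a −log10 q of 12.7 and the next 7.77, both above the whole Klf4 list median of 7.61. The remaining ones lay below that median. Among the 60000 strongest peaks of each list the log2 ratio of Nr5a1 was −0.56. Nr6a1, which encodes germ cell nuclear factor, had 14 peaks over 7674 bp and 12 over 7093 bp (log2 −0.11), with a broad start peak of 2221 and 2346 bp, and with 50 kb on both sides its log2 ratio was 0.36. Nr0b2, which encodes the DNA-binding-deficient repressor SHP, had 3 peaks in each list over 2189 and 2302 bp (log2 0.06).

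The ratio at a receptor gene went with the ratio of its neighbourhood. Over the 41 genes, the log2 ratio of the window and that of the 1 Mb on both sides had a Pearson r of 0.44 and a Spearman rho of 0.46. This is a description across genes, which share the 2 lists and in places the same region, and are not independent replicates. The relation was not computed over all genes, so it is not shown to be particular to receptors. The surrounding ratio had a median of 0.37 and ranged from −0.22 to 1.13, and 20 of 41 genes lay above their own surroundings. Rarg and Nr4a1, which lie on chromosome 15, had surroundings at 0.79 and 0.84. Rxra had surroundings at 0.64, Esrra at 0.58 and Nr5a1 at 0.37, and the genes themselves were at 0.80, 0.98 and 0.86. In the segment of chromosome 15 from 97 to 100 Mb that holds Vdr, 36.8% of Klf4 peaks and 20.1% of empty vector peaks were list-specific, close to the 36.7 and 18.8% of the whole lists. What part a regional difference has in the single-gene values was not tested.

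**Figure D5:**
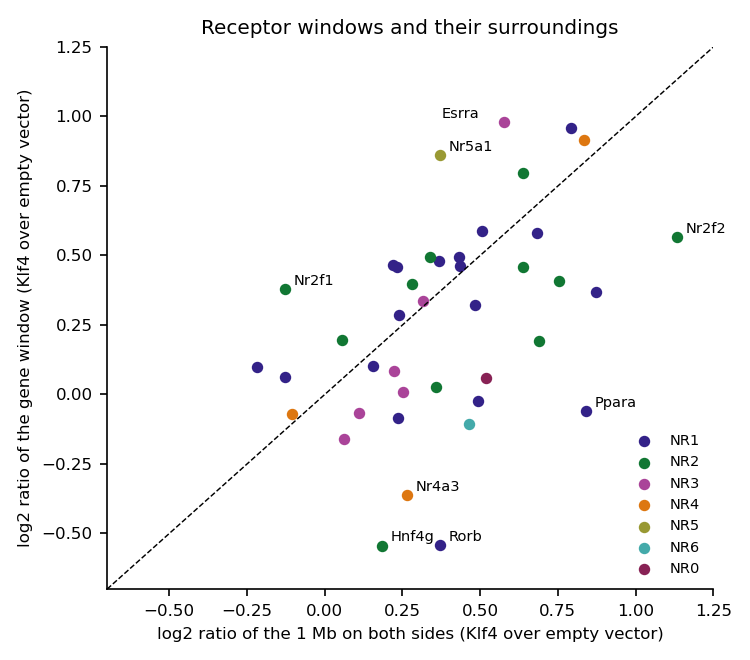
The log2 ratio of covered length in the window of each gene against the log2 ratio in the 1 Mb on both sides, coloured by subfamily, with a dashed line where they are equal. The 20 genes above the line include Esrra (0.98 against 0.58), and Hnf4g (−0.54 against 0.18) and Rorb (−0.54 against 0.37) lie far below it.

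Among the genes that work with the receptors, the order of the lists by median ratio depended on the window: with 10 kb on both sides it was 0.38 for receptor targets, 0.17 for coregulators and 0.15 for ligand enzymes, and with 50 kb it was 0.36, 0.37 and 0.55 (all genes 0.13 and 0.26). Of 15 coregulator genes, such as the coactivators Ncoa1 to Ncoa3 and the corepressor Ncor1, 11 had more coverage with Klf4 and 4 less (62.3 and 22.7% of all genes), and none passed 2-fold (8.51%). All 15 had a Klf4-only peak (60.6% of all genes), in windows with a median of 129.3 kb. Of 15 genes for enzymes that make or break down the ligands, 11 were higher and 4 lower (62.3 and 22.7%), and 2 passed 2-fold with Klf4 (8.51%). Dio3, the deiodinase that inactivates thyroid hormone, was listed with no peak in the empty vector list and had 7 peaks over 5698 bp in the Klf4 list, 1 of them at its start with a −log10 q of 10.3. Aldh1a3, which makes retinoic acid, had 1349 and 5067 bp (log2 1.59). The retinoic acid degrading genes Cyp26a1 and Cyp26b1 also had a start peak in the Klf4 list only, with −log10 q values of 10.3 and 11.6, which makes 3 of 11 ligand enzyme genes with a promoter entry (7.05% of all genes with an entry). Of 18 known receptor target genes, 16 were higher and 2 lower (62.3 and 22.7%), and 1 passed 2-fold (8.51%). Pdk4, a target of PPAR and glucocorticoid receptors, was listed with no peak in the empty vector list and had a start peak in the Klf4 list, 610 bp with a −log10 q of 10.8, and was the gene past the threshold. A start peak in the Klf4 list only was also present at Stra6, the retinol transporter gene, with a −log10 q of 3.01, which makes 2 of 15 targets with an entry (7.05%).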

How the data were processed

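ATAC-seq of MIN6 cells was deposited as 2 merged broadPeak lists, from 4 libraries per plasmid. Per the submitters' processing notes, FastQC, Bowtie2, MACS2 and DiffBind were used with the mm10 build; versions and read filtering are not given in the sources used here, and neither is whether libraries were merged before peak calling. An mRNA-seq library kit named in the labels was not resolved. Each peak has 3 values that the authors deposited: a fold enrichment (a ratio), −log10 of the p-value and −log10 of the q-value. A display score, also deposited, was not used. The smallest −log10 q was 1.02 (empty vector) and 1.00 (Klf4).

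Peaks on scaffolds (165 and 188) were left out. Gene windows came from the RefSeq gene table and starts and promoters from the RefSeq promoter table (both GRCm38.p6), which give no exons, so peaks are placed by gene body, flank and start only. A window can hold another gene's start, and 4 members (Thra, Hnf4g, Nr3c1, Nr5a1) had no promoter entry. Covered length, list-specific peaks (no overlap of 1 bp) and start peaks (500 bp on both sides) were computed with Python 3.11.15, numpy 2.4.6, pandas 2.3.3 and scipy 1.17.1, and figures with matplotlib 3.10.9. With 1 list per plasmid there is no test, and Wilson 95% intervals cover counting error only. The overlap step was checked on a simulated list of 100099 peaks, where 2000 of 2000 moved peaks were found.

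The members and lists were chosen with earlier results of these data known. Every member is named. Peaks are detailed for the 5 members at each end of the ratio (1000 bp or more covered in either list), the 3 with the strongest list-specific peak in each list and the 2 with the strongest peak in each list. Genes of the other lists are named at 2-fold or more, with further names as examples. Promoters follow start peaks in 1 list only, then start peak strength. Alternatives varied the peak threshold, list length, peak width, gene and start windows, overlap and added length.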

Additional observations from a re-analysis of the deposited data

How the results depend on the processing

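No paired analysis was possible because the deposited lists merge the libraries of each plasmid and carry no value per library; for the same reason no library could be left out. The median log2 ratio of the 41 genes, 0.32, was 0.059 with peaks of −log10 q of at least 5 (all genes 0.06), 0 at −log10 q of at least 20 (all genes 0), 0.023 with the 60000 strongest peaks of each list (all genes 0) and 0.16 with peaks of at least 500 bp (all genes 0.04). It stayed between 0.31 and 0.35 with the other windows and added lengths. The all-gene median was 0.02 over the gene body alone and 0.26 with 50 kb on both sides. It was 0.15 with 100 bp added and, over genes covered in both lists, 0.25 with no length added. No gene passed the 2-fold threshold upward as reported. At −log10 q of at least 5, 2 did (Nr2e1 and Esrra, 8.38% of all genes), among the 60000 strongest 2 (the same 2, 5.40%), with peaks of at least 500 bp 2 (Nr1i2 and Esrra, 10.02%), over the gene body alone 3 (Esrra, Nr2f1 and Nr4a1, 8.88%), with 50 kb on both sides 1 (Rarg, 6.78%), with 100 bp added 2 (Esrra and Rarg, 12.3%) and with no length added, chosen after seeing the data, 2 (Esrra and Rarg, 9.98%). Nr2e1 and Nr1i2 passed where no empty vector peak of their windows met the limit, although the whole empty vector list had peaks there that met Klf4 peaks. Downward, 3 passed at −log10 q of at least 20 (Nr2f2, Rarg and Esr2, 2.36%; each has a peak of near-equal width in both lists that is above 20 in the empty vector list only) and 1 with peaks of at least 500 bp (Rxrg, 1.32%), where 0 did as reported. Genes with a Klf4-only peak, 35 as reported, numbered 23 at −log10 q of at least 5 (43.2% of all genes), 3 at 20 (6.94%), 14 among the 60000 strongest (29.7%) and 23 at 500 bp (34.6%). Genes with an empty-vector-only peak, 22 as reported, numbered 7 (10.5%), 0 (0.137%), 6 (6.94%) and 6 (8.55%) in the same order and 35 (64.5%) with 50 kb on both sides. These filters keep fewer peaks by construction, and peaks counted as list-specific still had no partner in the whole other list. Start peaks in the empty vector list alone were 1 instead of 0 at −log10 q of at least 5 (Esr1; 0.526% of all genes), and those in the Klf4 list alone were 5 instead of 1 within 2000 bp (6.99%). With 50 kb on both sides the medians of the pathway lists were 0.37 for coregulators, 0.55 for ligand enzymes and 0.36 for receptor targets (all genes 0.26). Coverage was greater with Klf4 under each setting at 6 genes, smaller at 2, and of mixed or no direction at 33. The same counts were not computed over all genes, so whether they differ from that background is unknown. Changing only the added length cannot change a direction. Depth is unknown, so weak peaks missing from 1 list cannot be told apart from weak peaks below its threshold.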

Other observations

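Over all 21263 promoters of the table, CACCC was present in 58.8% of those with a start peak in both lists, in 71.9% of those with one in the Klf4 list only (1142 of 1589), in 45.6% with one in the empty vector list only and in 41.0% with neither. Median GC content in the same order was 60.8, 56.8, 48.8 and 44.8%. Of the 52 receptor promoters, 36 were in the first of these classes, 2 in the second (those of Nr1i3 and of the further Rxra start), 0 in the third and 14 in the last. These shares describe promoters that share the 2 lists and were not tested.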
